A study of Homo sapiens with 47 samples.

Results

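The genes described here are 10 genes of MHC class II and its regulation, of 58395 genes in the count table: HLA-DQB2, HLA-DQA2, HLA-DRA, HLA-DRB1, HLA-DPA1, HLA-DPB1, HLA-DMA, HLA-DMB, CD74 and CIITA. They were chosen by name, as a family, because HLA-DQB2 was near absent in wild-type cells and present in EAF1-mutant cells. The values of HLA-DQB2 in the same contrast thus chose the members, so all member values below are a description. Where members are counted against the thresholds of the fit, HLA-DQB2 included, this describes them too and is not a test of the group. RNA was measured in HEK293T, an established line derived from human embryonic kidney that carries the SV40 large T antigen. Wild-type HEK293T was compared with a HEK293T line in which CRISPR knock-in replaced residues of the MED26-binding site of EAF1 by alanines, 3 libraries each. EAF1 is a subunit of elongation complexes that bind RNA polymerase II and docks them to the Mediator subunit MED26. The methods describe a single knock-in line, so the genotype and the history of that line cannot be told apart. Ribosomal RNA was depleted from total RNA, and paired reads of 100 bases were sequenced. The 6 libraries held 59137210, 52541541 and 55637032 counts in wild type and 57198018, 53369621 and 66611451 in EAF1-mutant cells. They belong to a series of 47 samples, and its other assays were not analysed here.

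MHC class II molecules present peptides from the endosomal pathway to CD4 T cells. Each is a pair of an alpha and a beta chain, encoded by neighbouring genes of the HLA region on chromosome 6, and the pairs are HLA-DR, HLA-DQ and HLA-DP. The invariant chain CD74 occupies the groove during transport, and HLA-DM, a pair of HLA-DMA and HLA-DMB, exchanges its remnant for peptide. Transcription depends on CIITA, a coactivator without DNA binding of its own that joins RFX, NF-Y and CREB factors at the X and Y boxes of the promoters. Professional antigen-presenting cells express the genes constantly, and most other cells do so only after interferon gamma. HLA-DQB2 and HLA-DQA2 are a second DQ pair of restricted expression.

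The mutated gene was examined first. EAF1 (ENSG00000144597) was at 57.4 ± 0.951 CPM in the wild-type libraries and 18.8 ± 0.884 CPM in the EAF1-mutant ones (mean ± SD, n = 3 each), where CPM is counts for each 1000000 of the normalised library size. Its log2 fold change was -1.61 ± 0.05 (SE, edgeR quasi-likelihood test, adjusted p = 2.48e-18). EAF1 RNA was lower in all 3 EAF1-mutant libraries. By western blot, the paper reports that the level of EAF1 protein changed little in these cells. Gene counts do not show the substituted residues themselves.

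HLA-DQB2 (ENSG00000232629), the beta chain of the second DQ pair, spans chr6:32756098-32763532 on the minus strand of GRCh38. It had 1, 5 and 1 counts in the wild-type libraries and 1014, 978 and 1212 in the EAF1-mutant libraries. These are 0.0177, 0.0989 and 0.0187 CPM in the wild-type libraries and 17.0, 17.6 and 17.6 CPM in the EAF1-mutant ones. The 3 EAF1-mutant libraries lay close together and the groups did not overlap. Over the summed counts, 7 against 3204, the ratio corrected for library size was 399 with an exact 95% interval of 193 to 993, which covers counting error only. The wild-type mean, 0.0451 CPM, was under the level of 3 counts in each wild-type library, so the interval is read, not the single ratio. The fitted log2 fold change was 8.57. Its SE from the F statistic, 0.17, is not read as its precision, because the wild-type counts were so few. Wild-type replicate 2 held 5 of the 7 wild-type counts, and without it the log2 fold change was 9.73. In bulk RNA, a high level in few cells and a low level in many cells cannot be told apart.

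**Figure D1:**
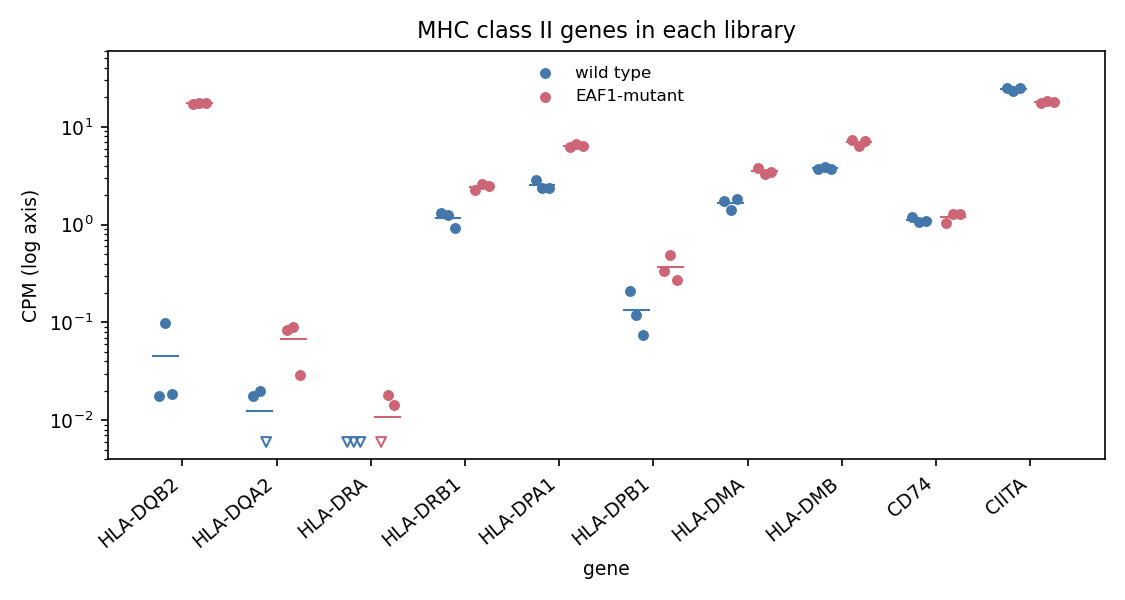
CPM of each of the 10 genes in each library, on a log axis, with wild type in blue, EAF1-mutant in red, bars at the group means and open triangles for libraries with 0 counts. HLA-DQB2 goes from a mean of 0.0451 CPM to 17.4 CPM, CIITA lies lower in EAF1-mutant cells, and HLA-DRA stays at 0 or 1 counts.

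Its partner gene HLA-DQA2 (ENSG00000237541), whose start lies 22.1 kb from that of HLA-DQB2, encodes the alpha chain of the same pair. HLA-DQA2 had 1, 1 and 0 counts in wild type and 5, 5 and 2 in EAF1-mutant cells. The summed counts, 2 against 12, gave an exact 95% interval of 1.16 to 48.1 for the ratio, which covers counting error only. All wild-type libraries were under the floor of 3 counts per library, so no single ratio is given. The level of HLA-DQA2 stayed at or below 0.0899 CPM in every library, while HLA-DQB2 reached 17.0 CPM or more in each EAF1-mutant library. HLA-DRA, the alpha chain shared by all HLA-DR molecules, had 0 counts in the wild-type libraries and 0, 1 and 1 in the EAF1-mutant libraries. Both groups were under the floor of 3 counts per library, which corresponds to 0.0434 to 0.0594 CPM, so no fold is given. HLA-DRA was not detectable above this floor at this depth.

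The other classical chains were present at low levels. HLA-DRB1, a beta chain of HLA-DR, had 1.31, 1.25 and 0.934 CPM in the wild-type libraries and 2.27, 2.61 and 2.49 CPM in the EAF1-mutant ones, with a log2 fold change of 1.07 ± 0.15 (SE). HLA-DPA1, the alpha chain of HLA-DP, had 2.88, 2.39 and 2.35 CPM in the wild-type libraries and 6.16, 6.62 and 6.33 CPM in the EAF1-mutant ones, with a log2 fold change of 1.32 ± 0.10. The libraries of both genes separated without overlap. HLA-DPB1, the beta chain that pairs with HLA-DPA1, had 12, 6 and 4 counts in wild type and 20, 27 and 19 in EAF1-mutant cells. Its log2 fold change of 1.38 ± 0.39 rested on few counts, and it was no longer past the thresholds in DESeq2 or when any of 4 of the 6 libraries was left out (wild-type replicate 2 or 3, EAF1-mutant replicate 1 or 2). The log2 fold change was 1.41 in DESeq2, and 1.29, 1.08, 1.43 and 1.14 without these libraries in the order given. The chains of a pair were thus unequal, with HLA-DRB1 counted without HLA-DRA, and HLA-DQB2 nearly without HLA-DQA2.

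The peptide-loading genes were also higher in each EAF1-mutant library. HLA-DMA had 1.75, 1.42 and 1.83 CPM in the wild-type libraries and 3.79, 3.31 and 3.45 CPM in the EAF1-mutant ones, with a log2 fold change of 1.07 ± 0.13 (SE). Its exons overlap those of the far more abundant BRD2, as described below. HLA-DMB had 3.73, 3.86 and 3.72 CPM in the wild-type libraries and 7.30, 6.33 and 7.21 CPM in the EAF1-mutant ones, with a log2 fold change of 0.88 ± 0.09. CD74, which shares its regulation with the class II chains, had 1.20, 1.07 and 1.08 CPM in the wild-type libraries and 1.04, 1.29 and 1.27 CPM in the EAF1-mutant ones. The groups of CD74 overlapped, and its log2 fold change was 0.10 ± 0.16.

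CIITA differed in the opposite direction from the chains. It had 24.8, 23.3 and 24.7 CPM in the wild-type libraries and 17.4, 18.5 and 17.9 CPM in the EAF1-mutant ones, so all 3 EAF1-mutant libraries were below all wild-type libraries. Its log2 fold change was -0.44 ± 0.05 (SE), within the fold limit of 0.5, and -0.32 when libraries were scaled by their totals alone. Part of the CIITA count could belong to other genes, since exons of DEXI on the opposite strand cover 10.7% of its exon length and those of ENSG00000280153 on the same strand cover 10.5%.

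Of the 10 genes, 8 passed the filter on low counts and 2, HLA-DQA2 and HLA-DRA, did not. Calls used the thresholds of the study, an adjusted p under 0.01 together with a log2 fold change beyond 0.5 in either direction. By this rule 6 members were called higher, beside 3071 of 28025 tested genes (11.0%). Over all genes 2624 (9.36%) were called lower, and the 2 tested members not called were CD74 and CIITA. The EAF1-mutant libraries lay above all wild-type libraries in 6 of the 8 tested members, against 29.2% of tested genes, and below them in 1, against 28.1%. They also lay above in HLA-DQA2, which was not tested. Since the contrast chose the members, nothing is read from these counts. The median log2 fold change was 1.07 over the tested members and 0.01 over all tested genes. With library totals alone the median of all genes was 0.13, and 69.4% of called genes were higher in place of 53.9%.

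Levels can be compared between genes only per length, here as CPM per kb of summed exon length. In wild type CIITA was highest at 1.08 ± 0.0372 CPM per kb (SD, n = 3), followed by HLA-DMB at 0.817 ± 0.0167 and HLA-DMA at 0.662 ± 0.0854. HLA-DPA1 and HLA-DRB1, at 0.443 ± 0.0512 and 0.377 ± 0.0651, did not differ beyond their spread, and HLA-DQB2 ranked 8 of 10. That rank rests on 7 counts. At 0.0223 ± 0.0230 HLA-DQB2 overlapped HLA-DPB1 at rank 7 (0.0259 ± 0.0134) and HLA-DQA2 at rank 9 (0.00857 ± 0.00745). In EAF1-mutant cells HLA-DQB2 ranked 1 at 8.58 ± 0.155 CPM per kb, ahead of HLA-DMB at 1.51 ± 0.116 and HLA-DMA at 1.40 ± 0.0993, which overlapped each other. HLA-DRB1 and CIITA, at 0.796 ± 0.0562 and 0.795 ± 0.0231, also overlapped. With the gene span in place of the exon length HLA-DQB2 held its rank in each group, and HLA-DMA went from rank 3 to 6 in both. By span HLA-DMB ranked 1 in wild type, ahead of CIITA, HLA-DPA1 and CD74, and in EAF1-mutant cells HLA-DPA1 ranked 3 and CIITA 4.

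**Figure D2:**
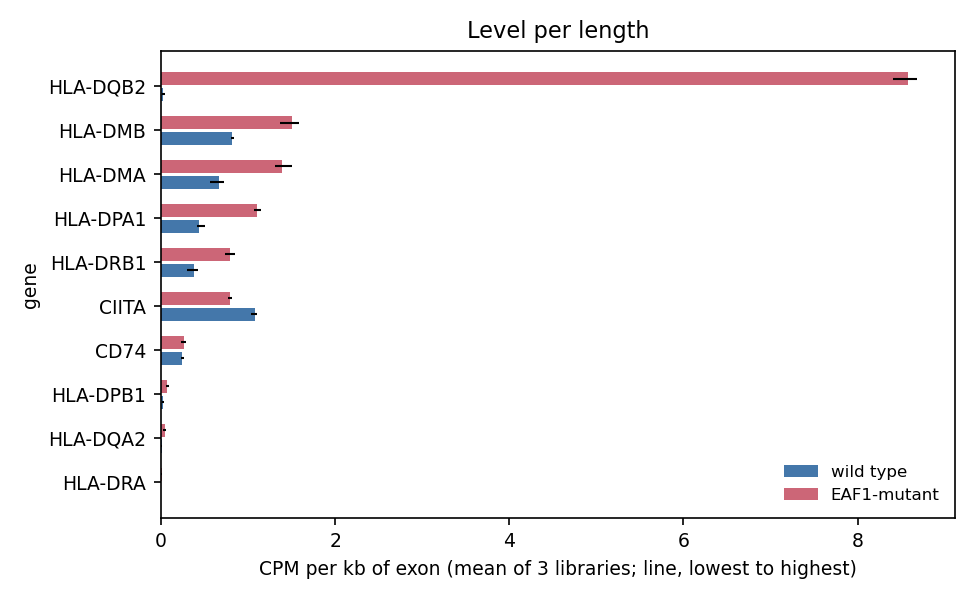
CPM per kb of exon for each gene, as bars from 0 at the mean of 3 libraries with lines from the lowest to the highest library, wild type in blue and EAF1-mutant in red. HLA-DQB2 stands at 8.58 in EAF1-mutant cells, and the next gene, HLA-DMB, at 1.51.

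Reads of near-identical genes may be split or lost in counting. Of the windows of 50 bases in HLA-DQB2 transcripts, 4.58% also occur in transcripts of other genes, mainly HLA-DQB1 (3.69%). Whether reads were assigned to the wrong gene was not tested. HLA-DRB1 shared 3.74% of its windows, mainly with HLA-DRB5, and HLA-DQA2 shared 10.4% with HLA-DQA1. HLA-DMA and HLA-DMB shared 4.04% and 8.07% with the readthrough gene ENSG00000248993, and HLA-DOB, described below, 26.7% with the readthrough gene ENSG00000250264. HLA-DPA1 and HLA-DPB1 overlap on opposite strands by 96 bases of exon, and HLA-DMA overlaps BRD2 on the opposite strand by 55. BRD2 had means of 433 and 734 CPM in wild-type and EAF1-mutant cells, against 1.67 and 3.52 CPM for HLA-DMA. Whether reads of BRD2 entered the HLA-DMA count was not tested. How the counting treated strand is not stated in the methods, the labels or the table, which leaves such pairs uncertain.

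The promoters of HLA-DQB2 and of its paralog HLA-DQB1, HLA-DMA and HLA-DMB are shown because CIITA acts through their X and Y boxes. Of the 10 members 8 matched an entry in the promoter table used here, taken from RefSeq (GRCh38.p14), and HLA-DRA and CIITA did not. The 150 bases before the start are printed 5′ to 3′ on the gene's strand, with matches to a simplified X motif or to a Y motif (GATTGG), on either strand, in capitals. The X motif was CC, 2 free bases, G, 2 free bases, AC, 2 free bases and ATG, letters set for this search. The coordinates are chr6:32763533-32763682, chr6:32666658-32666807, chr6:32953098-32953247 and chr6:32941029-32941178, all on the minus strand, in the order printed.
HLA-DQB2: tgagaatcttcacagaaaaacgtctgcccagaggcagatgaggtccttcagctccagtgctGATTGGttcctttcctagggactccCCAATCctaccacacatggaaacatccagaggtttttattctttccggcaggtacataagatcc
HLA-DQB1: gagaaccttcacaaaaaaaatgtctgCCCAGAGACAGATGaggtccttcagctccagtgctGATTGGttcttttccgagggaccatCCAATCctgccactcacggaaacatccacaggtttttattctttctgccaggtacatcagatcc
HLA-DMA: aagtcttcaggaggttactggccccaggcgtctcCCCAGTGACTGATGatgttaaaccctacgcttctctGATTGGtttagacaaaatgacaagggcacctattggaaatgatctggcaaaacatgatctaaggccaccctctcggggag
HLA-DMB: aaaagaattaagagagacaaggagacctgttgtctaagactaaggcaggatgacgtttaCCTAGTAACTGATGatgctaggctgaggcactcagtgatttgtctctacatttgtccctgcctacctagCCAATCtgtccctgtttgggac
Among all 35116 promoters of 300 bases, 0.561% held the X motif and 15.1% the Y motif. The Y motif was found in 6 of the 8 members and the X motif in 2, HLA-DMA and HLA-DMB. HLA-DQB1 held both, the X motif starting 124 bases before the start. Over these 124 bases HLA-DQB1 and HLA-DQB2 are 89.5% identical without gaps, and within the X motif they differ by A8G, with HLA-DQB1 first and positions counted from the first base of the motif. A match or its absence says only whether these letters occur in the window.

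Other class II genes, listed with earlier results of these data known and not among the members, were tested over all genes. Of 6 tested genes 5 rose, against 11.0% of all tested genes, and the median log2 fold change was 1.21. HLA-DOA, the alpha chain of the HLA-DM inhibitor HLA-DO, had 0.884, 0.574 and 0.710 CPM in the wild-type libraries and 6.13, 5.77 and 5.50 CPM in the EAF1-mutant ones. Its log2 fold change was 2.99 ± 0.14 (SE, edgeR quasi-likelihood test, adjusted p = 1.15e-14), higher in 3 of 3 libraries. HLA-DOB, the beta chain of HLA-DO, had 1.96, 2.06 and 1.85 CPM in the wild-type libraries and 1.34, 1.56 and 1.26 CPM in the EAF1-mutant ones. At a log2 fold change of -0.50 ± 0.14 (edgeR adjusted p = 0.00457) it stood at the fold limit without passing it, and reads of the sequence it shares with ENSG00000250264 may be counted for either gene. It was called lower without the filter on low counts (-0.503), and without EAF1-mutant replicate 2 (-0.59), wild-type replicate 1 (-0.51) or wild-type replicate 3 (-0.55).

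The first DQ pair rose by less than HLA-DQB2. HLA-DQB1, its beta chain, had 6.60, 5.70 and 5.25 CPM in the wild-type libraries and 11.3, 11.1 and 10.8 CPM in the EAF1-mutant ones, with a log2 fold change of 0.92 ± 0.08 (edgeR adjusted p = 7.17e-10). HLA-DQA1, its alpha chain, went from 0.340 ± 0.0750 to 1.21 ± 0.179 CPM (SD, n = 3), with a log2 fold change of 1.82 ± 0.22 (edgeR adjusted p = 3.03e-07). The antisense gene HLA-DQB1-AS1 (log2 fold change 0.98, edgeR adjusted p = 1.16e-06) and HLA-DRB5 (1.45, edgeR adjusted p = 0.00134), the latter named after its values were seen, were the other 2 that rose. HLA-DQB1-AS1 lies inside HLA-DQB1 on the opposite strand, so the 2 may share reads, and without it, a choice made after the data were seen, 4 of 5 rose. HLA-DRB5 was not called without EAF1-mutant replicate 3 (1.18) or wild-type replicate 2 (1.08). None of the 6 fell in edgeR or in DESeq2, with 5 higher and 1 lower at an unadjusted p under 0.05.

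Of 13 tested factors that act at class II promoters 2 rose, against 11.0% of all tested genes, and none fell in edgeR or DESeq2. At an unadjusted p under 0.05, 5 were higher and 6 lower. The median log2 fold change was -0.09, and 0.03 with library totals alone. NFYC, a subunit of NF-Y at the Y box, had a log2 fold change of 0.68 ± 0.04 (edgeR adjusted p = 4.87e-12), and KAT2B, an acetyltransferase coactivator, 0.57 ± 0.05 (edgeR adjusted p = 7.87e-10). The other NF-Y subunits, NFYA and NFYB, named after their values were seen, were not called. They were lower in each EAF1-mutant library, at -0.27 ± 0.05 and -0.25 ± 0.05 (edgeR adjusted p = 7.91e-05 and 7.16e-05). The RFX subunits were not called, with log2 fold changes of -0.25 ± 0.04 for RFX5, -0.19 ± 0.05 for RFXANK and -0.06 ± 0.09 for RFXAP. Among 10 factors that repress class II genes or silence chromatin 1 fell, against 9.36% of all tested genes, namely EZH2, the methyltransferase of Polycomb complex PRC2, at -0.53 ± 0.04 (edgeR adjusted p = 3.18e-11). With library totals alone it was at -0.42 and not called. None of these 10 rose in edgeR or DESeq2, with 0 higher and 4 lower at an unadjusted p under 0.05.

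Interferon signalling genes and their targets were examined because interferon gamma induces class II genes. IFNG had 0 counts in all 6 libraries. Of 9 tested genes of interferon gamma signalling none was called in either direction in edgeR or DESeq2, with 1 higher and 4 lower at an unadjusted p under 0.05. Without wild-type replicate 3, USF1, named after its values were seen, was called lower, at -0.50 in place of -0.45 ± 0.05. IRF1, a transcription factor induced by interferon, had a log2 fold change of 0.09 ± 0.07. Of 15 tested interferon-induced genes 2 rose, IFITM1 (log2 fold change 0.96 ± 0.11, edgeR adjusted p = 1.44e-07) and IFI6 (0.61 ± 0.13, edgeR adjusted p = 0.000337, and 0.499 and not called without wild-type replicate 2), and 1 fell, IFIT1 (-0.69 ± 0.12, edgeR adjusted p = 2.54e-05). Over all tested genes 11.0% rose and 9.36% fell. A second gene, OAS3, named after its values were seen, had 10, 13 and 17 counts in wild type and 0, 4 and 3 in EAF1-mutant cells, under the filter of the main fit. It was called lower in DESeq2 (-2.73), without the filter (-2.65), and without wild-type replicate 1 or any one of the EAF1-mutant replicates. In the other direction, and named after their values were seen, RSAD2, with 1, 0 and 0 counts in wild type and 4, 7 and 7 in EAF1-mutant cells, was called higher without the filter (3.57), and STAT2 with library totals alone (0.59 in place of 0.48). The list's median was 0.03, and 14 of its 29 genes were not tested for low counts.

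Genes of class II antigen processing showed a median log2 fold change of 0.11, and 0.22 with library totals alone. Of 12 tested 2 rose, against 11.0% of all tested genes, the thiol reductase IFI30 (0.82 ± 0.06, edgeR adjusted p = 2.90e-11) and the aspartic protease CTSD (0.81 ± 0.04, edgeR adjusted p = 4.76e-13). None fell in edgeR or DESeq2, with 6 higher and 3 lower at an unadjusted p under 0.05. CTSS, the protease that trims the invariant chain, had 2 to 12 counts per library. Of 15 tested genes of class I presentation 1 rose, TAPBP, which holds class I molecules at the peptide transporter (0.89 ± 0.06, edgeR adjusted p = 5.47e-12), and 1 fell, the immunoproteasome subunit PSMB10 (-0.76 ± 0.06, edgeR adjusted p = 1.10e-10), against 11.0% and 9.36% of all tested genes. Without wild-type replicate 2, HLA-C, named after its values were seen, was also called lower (-0.54 in place of -0.46), and with library totals alone TAP1 was also called higher (0.51). B2M, the light chain of class I, had a log2 fold change of 0.21 ± 0.04 and was not called.

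**Figure D3:**
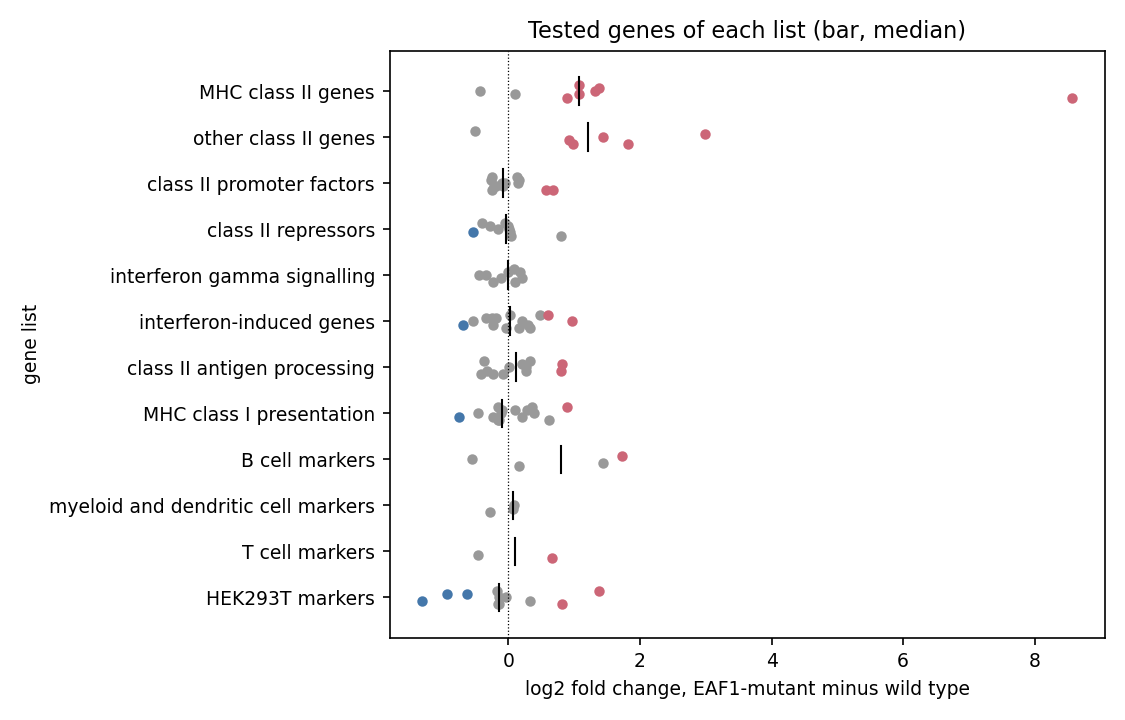
Log2 fold change, EAF1-mutant minus wild type, of each tested gene in each list, red for called higher, blue for called lower, grey for not called, with a bar at the list's median. The members (shown without a test) and the other class II genes have medians of 1.07 and 1.21, and the promoter factor and interferon lists have medians between -0.09 and 0.03. With library totals alone these medians are 0.03 for promoter factors, 0.11 for interferon gamma signalling and 0.15 for interferon-induced genes, and the last is 0.23 without the filter on low counts.

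Genes around HLA-DQB2 were also tested. The rule that chose the members did not name position. Even so, 8 of the 10 members lie on chromosome 6, with starts at most 324 kb from that of HLA-DQB2, whose values made the rule. The window is thus not independent of that choice. Of 26 tested genes whose start lies within 500 kb, members left out, 14 rose, against 11.0% of all tested genes. The 14 include the 5 other class II genes that rose, so these counts are not separate results. None of the 26 fell in edgeR or DESeq2, with 20 higher and 2 lower at an unadjusted p under 0.05, and the median log2 fold change was 0.66. Within 100 kb 1 of 7 rose, HLA-DQB1, while the nearest neighbours were not called. These were HLA-DOB, TAP2, ENSG00000250264, PSMB8-AS1, PSMB9 and TAP1, with log2 fold changes of -0.50, -0.10, -0.10, 0.36, 0.61 and 0.39. The remaining genes that rose began over 100 kb away and are not all independent. They include ENSG00000248993, the readthrough of 2 members, and ENSG00000223837 and ENSG00000263756, both inside BRD2, all named after their values were seen. Without these 3, a choice made after the data were seen, 11 of 23 rose, and 5 of 16 of those without an HLA name. Leaving out HLA-DQB1-AS1 as well gave 10 of 22. Among the 5 without an HLA name, and named after their values were seen, BRD2 had a log2 fold change of 0.76 and COL11A2 1.14.

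Counts by distance are given without a test of their difference, beside 11.0% of all tested genes called higher. In the 500 kb at lower coordinates than the start of HLA-DQB2 4 of 5 tested genes rose, and in the 500 kb at higher coordinates 10 of 21 rose. The 4 were HLA-DRB5, HLA-DQA1, HLA-DQB1-AS1 and HLA-DQB1, already counted among the other class II genes. The remaining gene on that side, HNRNPA1P2, named after its values were seen, was at -0.62 ± 0.35 and not called. From 0.5 to 1 Mb away 7 of 26 rose on the side of higher coordinates, and on the side of lower ones 4 of 50 rose and 1 fell. Further out some bins of 500 kb had 3 of 9 that rose, at 1.5 to 2 Mb on the lower side and at 2 to 2.5 and 3.5 to 4 Mb on the higher side, and others had 0. Outward from 0.5 to 3 Mb on the higher side, the bin medians of the log2 fold change were 0.29, 0.33, 0.39, 0.45 and 0.47. From 3 to 4 Mb on that side they were -0.11 and -0.17. Outward from 0.5 to 4 Mb on the lower side they were 0.14, 0.05, 0.06, 0.03, -0.04, -0.12 and 0.41. The median of all tested genes was 0.01. Over chromosome 6 without the members 189 of 1409 tested genes rose and 97 fell, with a median log2 fold change of 0.04.

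**Figure D4:**
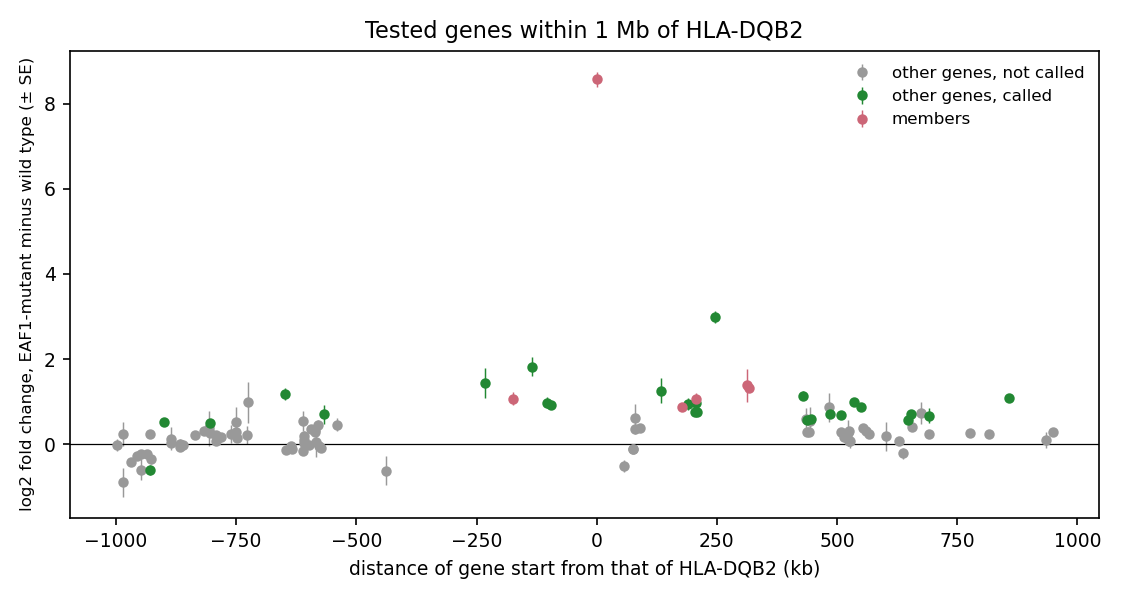
Log2 fold change with SE of tested genes against the distance in kb of their start from that of HLA-DQB2, positive toward higher coordinates, members in red, other called genes in green, other genes in grey. HLA-DQB2 stands at 8.57, HLA-DOA follows at 2.99, and most other called genes lie between 0.5 and 2. The SE drawn for HLA-DQB2 is not read as its precision.

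A pattern like that of HLA-DQB2 was found in other genes outside the HLA region. By a limit set after the values were seen, 27 tested genes had a mean under 0.1 CPM in wild type and at least 1 CPM in EAF1-mutant cells, and 11 had the reverse. HLA-DQB2 ranked 2 of the 27 by its EAF1-mutant CPM. The 5 genes with the smallest Euclidean distance to HLA-DQB2 in log2 CPM over the 6 libraries were WWC3 (1.58), ENSG00000272473 (1.76), LINC01836 (2.31), GPR50-AS1 (2.77) and PGR (2.93), the progesterone receptor. LINC01836 went from 0.0482 ± 0.0447 to 19.0 ± 0.127 CPM (SD, n = 3), and WWC3 from 0.0888 ± 0.0444 to 12.1 ± 0.199 CPM. None of the 5 lies on chromosome 6. By correlation in place of distance, 0 of these 5 were among the first 5.

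Markers of cells that present antigen were examined because such cells would carry class II RNA. Of 13 myeloid and dendritic cell markers TYROBP, FCER1A and CLEC9A had 0 counts in all 6 libraries, and PTPRC, the pan-leukocyte antigen, had 1 to 3 counts. Their summed level was 2.35, 2.196 and 1.94 CPM in the wild-type libraries and 2.05, 2.57 and 2.11 CPM in the EAF1-mutant ones, with CSF1R the most abundant. The sums of both groups overlapped. Of 8 B cell markers the defining gene MS4A1 had 0 or 1 counts. They summed to 4.26 ± 0.135 and 8.01 ± 0.207 CPM in the 2 groups, wild type first (SD, n = 3), and most of the difference came from CR2, the complement receptor, at 1.56 and 5.14 CPM (log2 fold change 1.72, edgeR adjusted p = 4.33e-12). CR2 was the only one of the 4 tested B cell markers called, and their median log2 fold change was 0.80. Named after their values were seen, CD79A, with 6, 2 and 6 counts in wild type and 18, 14 and 12 in EAF1-mutant cells, was at 1.44 ± 0.45 (edgeR adjusted p = 0.0102) and not called, BLK was at -0.56 ± 0.28 and not called, and CD22, not tested, had 8, 11 and 8 counts in wild type and 3, 4 and 0 in EAF1-mutant cells. The 6 T cell markers summed to 1.50 ± 0.132 and 1.86 ± 0.0735 CPM, with CD4 the most abundant and called (0.66, edgeR adjusted p = 0.00254). CD8A, named after its values were seen, went the other way without a call, from 0.588 to 0.428 CPM (-0.46 ± 0.24), and the median of the 2 tested T cell markers was 0.10. CD4 was not called in DESeq2 (0.65) or without EAF1-mutant replicate 1, EAF1-mutant replicate 2 or wild-type replicate 3 (0.64, 0.64 and 0.49). CD3D, CD3E and CD3G had 0 to 3 counts.

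The label of the line was checked with 11 genes that mark HEK293T, all tested, of which 2 rose and 3 fell, against 11.0% and 9.36% of all tested genes. The keratins KRT8 and KRT18 rose (log2 fold change 1.38, edgeR adjusted p = 6.61e-17, and 0.82, edgeR adjusted p = 5.90e-14). Those that fell included the neurofilament gene NEFM (-1.31, edgeR adjusted p = 1.35e-15) and the intermediate filament gene VIM (-0.93, edgeR adjusted p = 5.66e-16). Their part in the class II values was not tested.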

How the data were processed

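Per the methods and labels, ribosomal RNA was removed from total RNA with Ribo-Zero, and libraries were made with a stranded TruSeq kit. The authors mapped reads with HISAT2 to GRCh38 and counted them per Ensembl gene with Rsubread. The methods name Trim Galore and the submitters' processing notes Trimmomatic for trimming. The deposited values are raw counts per gene, without normalisation. The sources used here do not state its settings for strand and multi-mapping reads.

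Counts were fitted with edgeR 4.0.16 (quasi-likelihood, TMM, filterByExpr) in R 4.3.3, adjusted by Benjamini-Hochberg over 28025 tested genes, after the script was tested on simulated data. The common biological coefficient of variation was 4.11%. CPM used TMM-scaled library sizes, and log2 CPM a prior count of 2. SEs came from the F statistics of the fit. Gene models were GENCODE 44, which held 57754 of the 58395 identifiers. DESeq2 1.42.0, other scalings, filters and thresholds were alternatives. The paper describes its replicates in general as biological, and p-values measure the spread between the libraries of one knock-in line.

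The members and lists were chosen with earlier results of these data known. Named genes were the members, up to 3 highest and 3 lowest called genes of each list with a mean of at least 1 CPM, factors whose role had to be stated, the 5 genes most like HLA-DQB2 and those within 100 kb. HLA-DRB3 and HLA-DRB4, also listed, were not analysed here. Of the genes counted in the lists, 2 that the rule would name are not reported here.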

Additional observations from a re-analysis of the deposited data

How the results depend on the processing

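DESeq2, library totals without TMM, a mean of at least 10 counts and no filter kept the total counts of called genes within 1.5 times of the main values, except that other pathway genes called lower went from 3 to 5 without the filter. Counts of single lists also moved. Interferon-induced genes called lower went from 1 to 2 in DESeq2 and without the filter, those called higher from 2 to 3 without the filter and with library totals, other class II genes called lower from 0 to 1 without the filter, and with library totals repressors called lower from 1 to 0 and class I genes called higher from 1 to 2. At an adjusted p under 0.05 with no fold limit, 7250 genes were called higher and 7170 lower, with 25 and 23 other pathway genes. At a log2 fold change over 1, 1452 were higher and 698 lower, with 3 and 0 other pathway genes and 5 near HLA-DQB2. In a window of 100 kb 1 of 7 tested genes near HLA-DQB2 was called, against 14 of 26 within 500 kb. Without the readthrough gene and the genes inside BRD2, an alternative added after seeing the data, 11 were called, and 10 without HLA-DQB1-AS1 as well. Without HLA-DQB1-AS1, also added then, 11 other pathway genes were called higher. Leaving out each library gave 2790 to 2924 genes higher, 2493 to 2664 lower, 5 to 6 members higher, 10 to 12 other pathway genes higher and 4 to 5 lower, and 13 to 15 genes near HLA-DQB2. Other pathway genes called lower were 5 without wild-type replicate 1, wild-type replicate 3 or EAF1-mutant replicate 2, and the cause was not tested. Without wild-type replicate 2, interferon-induced genes called higher were 1 and class I genes called lower 2, and without wild-type replicate 3 interferon gamma signalling genes called lower were 1. With library totals some list medians changed sign, to 0.0287 for promoter factors, 0.0860 for repressors, 0.111 for interferon gamma signalling and 0.0157 for class I presentation, since that scaling moves all genes. Of 96 member log2 fold changes recomputed 94 moved by less than the spread of the libraries, and the others were HLA-DQB2 without wild-type replicate 2 and CIITA with library totals.

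Libraries with the same number did not deviate together (r = -0.0052, -0.0141 and 0.0101), and none correlated best with its own number. With a replicate block 3055 genes were called higher and 2631 lower, with 6 members higher, 12 other pathway genes higher and 3 lower, and 14 near HLA-DQB2. Depth limits HLA-DRA, HLA-DQA2 and HLA-DPB1, which had at most 27 counts per library.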
